A study of Mus musculus with 4 samples.

Results

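The 10 genes described here encode the core of a transcription pathway that links neuronal firing to gene expression. They are the CREB family factors Creb1, Crem and Atf1, the coactivator Crebbp, the CREB-regulated transcription coactivators Crtc1, Crtc2 and Crtc3, and the salt-inducible kinases Sik1, Sik2 and Sik3. They were taken by symbol from 22492 gene symbols, each had 1 row in each of the 4 tables, and all 10 were measured. Hippocampal neurons of newborn CD1 mice (P0) were grown for 11 days and infected on day 4 with lentivirus, either the pLKO.1 vector or the same kind of virus carrying 1 short hairpin RNA against Kdm6b. On day 11 the cultures received nothing, or bicuculline at 50 µM (the label writes µm) and 4-aminopyridine at 2.5 mM for 3 h, here called Bic/4AP. All 4 groups are therefore infected cultures, there was no uninfected one, and each group is 1 RNA library.

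CREB1 sits on cAMP response elements (CRE) in promoters and is switched on when kinases driven by calcium or cAMP phosphorylate it. It then recruits the acetyltransferase CBP, the product of Crebbp. CRTC proteins are a second input: salt-inducible kinases phosphorylate them and hold them in the cytoplasm, while the calcium-dependent phosphatase calcineurin releases them to the nucleus, where they bind CREB. In neurons this arrangement is known for its part in activity-dependent transcription, and Sik1 and the inducible repressor form of Crem are both known CREB targets that feed back on the pathway.

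Promoter windows are shown for some members whose levels with Bic/4AP lay above the untreated levels and for some whose levels lay below. The letters can so be read beside the values. Each window runs from 250 bases before to 50 bases after an annotated start, 5′ to 3′ on the strand of the gene, from RefSeq on GRCm38.p6. Of the 10 members, 7 had a window (Creb1, Atf1, Crebbp, Crtc1, Crtc3, Sik2 and Sik3). Capitals mark the letters TGACG, the core of the CRE, or their reverse complement CGTCA. The windows of Sik2 (chr9:51009024-51009323, minus strand), Sik3 (chr9:46012570-46012869, plus strand) and Atf1 (chr15:100227609-100227908, plus strand) hold the core.
Sik2: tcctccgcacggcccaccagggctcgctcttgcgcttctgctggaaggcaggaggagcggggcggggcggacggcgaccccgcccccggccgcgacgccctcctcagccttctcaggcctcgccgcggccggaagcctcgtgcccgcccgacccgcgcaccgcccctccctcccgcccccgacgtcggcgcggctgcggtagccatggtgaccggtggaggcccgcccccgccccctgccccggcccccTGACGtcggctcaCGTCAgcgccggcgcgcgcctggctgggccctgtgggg
Sik3: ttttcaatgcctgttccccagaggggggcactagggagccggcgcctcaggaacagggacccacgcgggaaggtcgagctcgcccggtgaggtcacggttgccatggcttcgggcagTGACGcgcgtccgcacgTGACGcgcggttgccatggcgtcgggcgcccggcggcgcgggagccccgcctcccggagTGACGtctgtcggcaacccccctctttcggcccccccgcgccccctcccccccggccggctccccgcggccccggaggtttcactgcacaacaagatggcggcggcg
Atf1: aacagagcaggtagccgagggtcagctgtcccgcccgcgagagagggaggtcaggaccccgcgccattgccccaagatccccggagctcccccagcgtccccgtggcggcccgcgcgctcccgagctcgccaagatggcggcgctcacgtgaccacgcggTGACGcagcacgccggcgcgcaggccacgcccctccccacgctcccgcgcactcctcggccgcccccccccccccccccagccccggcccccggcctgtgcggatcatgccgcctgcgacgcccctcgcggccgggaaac
The windows of Creb1 (chr1:64532554-64532853, plus strand) and Crtc1 (chr8:70439524-70439823, minus strand) do not.
Creb1: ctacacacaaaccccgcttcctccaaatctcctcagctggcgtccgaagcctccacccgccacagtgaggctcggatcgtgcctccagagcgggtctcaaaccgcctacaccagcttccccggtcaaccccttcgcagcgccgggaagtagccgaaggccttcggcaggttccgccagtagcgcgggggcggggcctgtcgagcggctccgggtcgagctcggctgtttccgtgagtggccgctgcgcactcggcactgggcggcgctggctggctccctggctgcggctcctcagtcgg
Crtc1: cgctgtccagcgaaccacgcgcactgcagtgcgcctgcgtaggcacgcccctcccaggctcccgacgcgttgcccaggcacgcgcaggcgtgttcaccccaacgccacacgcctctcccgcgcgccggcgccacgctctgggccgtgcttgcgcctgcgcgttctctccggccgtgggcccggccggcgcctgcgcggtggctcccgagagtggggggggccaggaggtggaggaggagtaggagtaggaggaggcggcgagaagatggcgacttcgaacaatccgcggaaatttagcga

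The CRE core was present in 3 of the 7 windows, with 3 copies for Sik3, 2 for Sik2 and 1 for Atf1. The full palindrome TGACGTCA, which would count as 2 overlapping cores, was in none of the 7. Counted from the annotated start base as 0, the cores of Sik2 began at -1 and 12, on opposite strands. Those of Sik3 began at -133, -116 and -57 and that of Atf1 at -90, all on the strand of the gene. The 3 windows with a core belonged to genes that were higher with Bic/4AP in vector cultures, with bounds (described below) that did not overlap. The windows of Creb1, Crtc1 and Crtc3, which were lower, held none. Crebbp was slightly higher, with overlapping bounds, and its window held none either. Sik1, Crem and Crtc2 were also higher with bounds apart but have no window here. Whether their promoters hold a core is therefore not known, and the windows cannot show a split by direction. Over all 32851 windows, 20.8% held at least 1 core, 5.01% at least 2 and 1.79% the palindrome. The members' windows were rich in G and C (69.0% to 82.0%, against a median of 52.7%), and among the 3632 windows at or above 69.0% the share with a core was 30.3%. Taking for each gene the window with the most cores, 51.7% of the 207 genes with a window and an at least 2-fold higher level with Bic/4AP in vector cultures had a core, against 34.9% of 9089 other compared genes. Sik2, Sik3 and Atf1, with differences of 0.97, 0.46 and 0.51 in log2(FPKM + 1), missed the 2-fold call used here and count among the other genes. Sik1, which met it, has no window. The shares were not matched for G and C content. All of these counts are matches of letters and not measured binding.

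**Figure D1:**
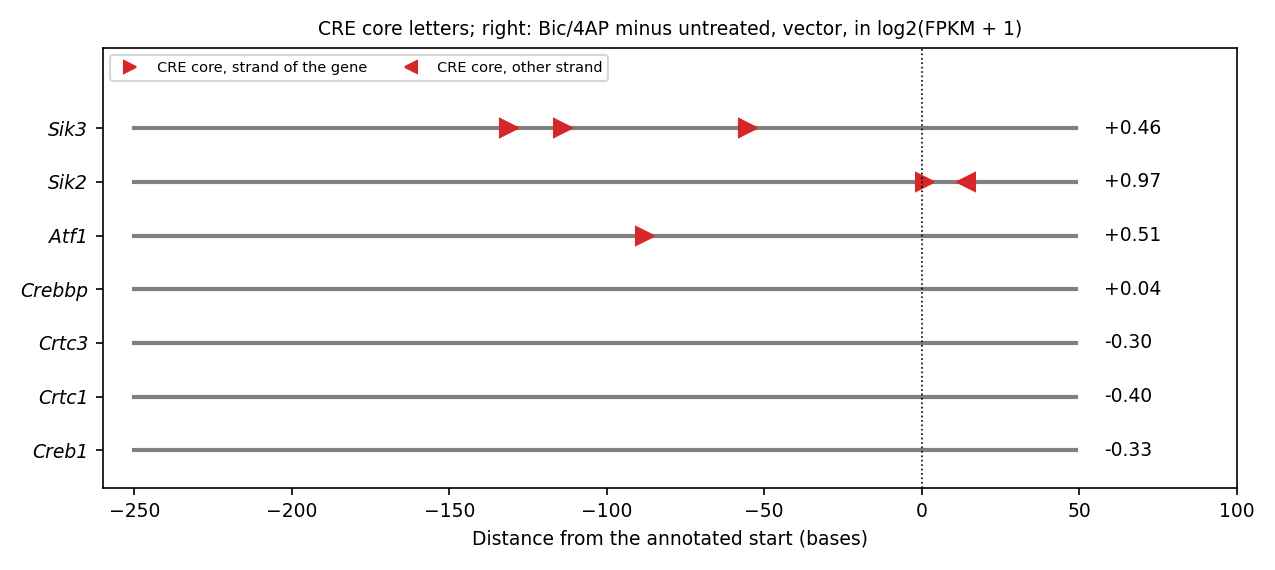
Positions of the CRE core in the promoter windows of 7 members, in bases from the annotated start; triangles point along the strand, and the number at the right is the Bic/4AP minus untreated difference in log2(FPKM + 1) in vector cultures. The 3 genes with a core, Sik3, Sik2 and Atf1, have differences of 0.46, 0.97 and 0.51, and Creb1, Crtc1, Crtc3 and Crebbp have no core.

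Levels are given as FPKM, fragments scaled by transcript length and by the size of the library, so that genes of different length can be set side by side. Each value has the lower and upper bound that the authors deposited with it. As every group is a single library, no difference was tested, and the bounds cover counting and read assignment in 1 library and not the spread between cultures. For genes at an FPKM of 5 or more, the median distance to the upper bound was 4.18% to 4.44% of the value in the 4 libraries. Read totals were not analysed here, so the depth is unknown. The hairpin's target, Kdm6b, was at 6.74 in vector and 2.73 in hairpin cultures untreated, and at 13.1 and 4.83 with Bic/4AP. All 7 neuron markers reached an FPKM of 1 in every library (sum 1085 to 1532), and so did all 6 astrocyte markers (sum 2247 to 2563), so the cultures held glial as well as neuronal RNA. Of the markers of other cells, 4 of 6 for microglia (sum 14.3 to 32.8), 4 of 6 for the oligodendrocyte lineage (67.2 to 89.8), 4 of 4 for fibroblasts (13.97 to 18.7) and 2 of 5 for endothelial and mural cells (6.31 to 7.84, with Cldn5 below 0.1 throughout) reached an FPKM of 1 in every library. In bulk RNA, fewer cells of a type and less RNA per cell cannot be told apart.

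At rest the members spanned a wide range. In the untreated vector culture Sik3 was the most abundant at 17.1, followed by Crtc1 at 15.8 and Crtc3 at 9.13. Crtc2 (7.72), Sik2 (7.71), Atf1 (7.47) and Creb1 (7.04) came next, and the bounds of each overlapped those of its neighbour in this order. Sik1 (5.82) and Crebbp (5.27) lay below them with bounds that also met. Crem was last at 0.714 (bounds 0.479 to 0.948), below the FPKM of 1 used as a minimum for comparison. With Bic/4AP the order was another: Sik1, the eighth of the members untreated, was the second in both backgrounds, behind Sik3, and Sik2 was the third, while Creb1 was the last but for Crem. Among all 21720 genes kept, Sik1 lay above 56.9% in the untreated vector library and above 78.6% in the stimulated one.

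**Figure D2:**
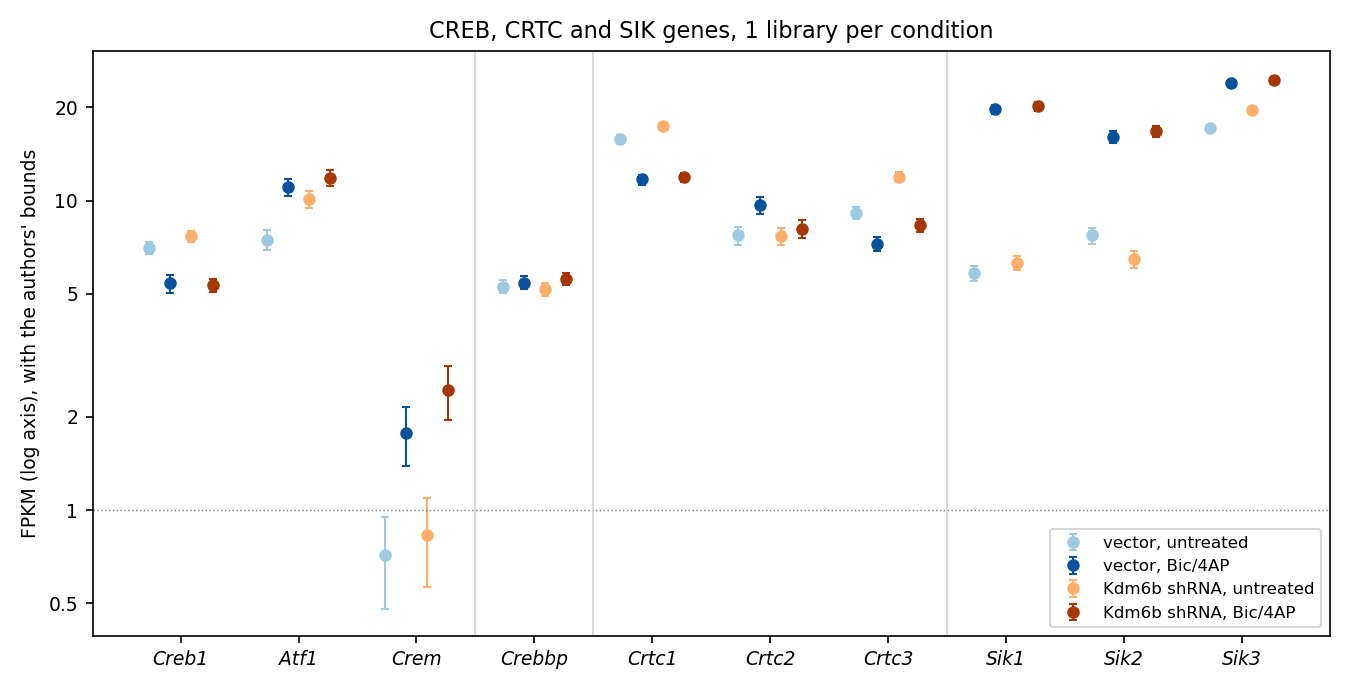
FPKM of the 10 members in the 4 libraries on a log axis; error bars are the authors' bounds within 1 library, and the dotted line marks an FPKM of 1. Sik1, Sik2 and Crem show the widest gaps between untreated and Bic/4AP libraries, with Sik1 at 5.82 and 6.30 untreated and 19.7 and 20.2 with Bic/4AP.

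The first question was how these genes differ after 3 h of synaptic firing. The salt-inducible kinase genes were all higher with Bic/4AP, with the largest difference for Sik1, while Creb1, Crtc1 and Crtc3 were lower and Atf1 and Crem higher. A difference of at least 1 in log2(FPKM + 1) is called 2-fold below, and a second, looser call asks that the bounds of both libraries do not overlap. Crem reached an FPKM of 1 only in the stimulated libraries and so entered the comparison only through the group where it was high. It is left out of the counts that follow. Of the other 9 members, 1 was 2-fold higher and 0 were 2-fold lower in vector cultures, where this call was met by 2.22% of 13217 genes upward and by 0.272% downward. With the hairpin, 2 of the 9 were 2-fold higher and 0 lower, against 2.08% and 0.158% of 13320 genes. By the bounds, 5 of the 9 were higher and 3 lower in vector cultures and 4 higher and 3 lower with the hairpin. That looser call was common: 21.8% of all genes were higher and 37.0% lower by it in vector cultures, and 17.0% and 37.6% with the hairpin. The median difference of the 9 was 0.29 in vector and 0.09 in hairpin cultures, against -0.07 and -0.08 over all genes. Alongside, the summed neuron markers were at 1532 untreated and 1237 with Bic/4AP in vector cultures and at 1224 and 1085 with the hairpin, and the astrocyte sum at 2247 and 2469 and at 2247 and 2563. Not every marker followed its sum. Slc17a7 was at 306.9 and 206.2 in vector and 185.4 and 149.8 in hairpin cultures, but Gad1 at 139.3 and 145.9 and at 64.5 and 88.0. Snap25 was at 452 and 382.7 and at 416.8 and 429.3. Gfap was at 1514 and 1686 and at 1533 and 1767, but Slc1a2 at 125.1 and 103.5 and at 75.4 and 74.55. The part of these in the members' differences was not tested.

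Sik1, a kinase whose transcript is known to be induced by cAMP and calcium, lies on chromosome 17 from 31981195 to 31992737 (mm9). Its FPKM was 5.82 (5.49 to 6.16) in the untreated and 19.7 (19.1 to 20.4) in the stimulated vector culture. In hairpin cultures the untreated level was 6.30 (5.96 to 6.64) and the stimulated level 20.2 (19.5 to 20.8). The untreated pair and the stimulated pair lay far apart, and the background made little difference to either. The level was 3.39 times as high with Bic/4AP in vector cultures (3.10 to 3.71 from the bounds) and 3.20 times as high with the hairpin (2.94 to 3.49). The differences of 1.60 and 1.53 placed Sik1 at rank 108 of 13217 genes and rank 138 of 13320 from the top.

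Sik2 (chromosome 9, 50700906 to 50817178), a kinase known to restrain CRTC1 in neurons, was at 7.71 (7.26 to 8.17) untreated and 16.1 (15.4 to 16.7) with Bic/4AP in vector cultures. With the hairpin it was at 6.46 (6.06 to 6.87) and 16.8 (16.1 to 17.4). The stimulated levels again stood clear of the untreated ones in both backgrounds. The ratio was 2.08 (1.88 to 2.30) in vector and 2.59 (2.34 to 2.88) in hairpin cultures, and the differences were 0.97 and 1.25. In vector cultures Sik2 therefore missed the 2-fold call on the log2(FPKM + 1) scale although its FPKM more than doubled; it passed with a pseudocount of 0.1 (1.048) and under median-ratio (1.041) and upper-quartile (1.006) scaling. The locus of Sik2 shares 1429 bp with that of Ppp2r1b, a phosphatase scaffold subunit gene, which was at 11.1 and 16.7 in vector and 11.4 and 15.4 in hairpin cultures. Whether the counting used strand is not given in the sources used here, and the part of reads in the shared stretch in the Sik2 values was not tested.

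Sik3 (chromosome 9, 45820903 to 46032277), the third of these kinases, was the most abundant member in every library. It stood at 17.1 (16.6 to 17.6) and 23.95 (23.4 to 24.5) in vector cultures and at 19.6 (19.1 to 20.1) and 24.4 (23.8 to 25.0) with the hairpin. Both stimulated values lay above both untreated values. The ratios, 1.40 (1.33 to 1.48) and 1.25 (1.19 to 1.31), were smaller than those of Sik1 and Sik2, and the differences of 0.46 and 0.31 did not reach the 2-fold call.

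Within the CREB family the 3 genes diverged. Crem, whose short inducible products repress CRE-driven transcription, was at 0.714 (0.479 to 0.948) and 1.78 (1.39 to 2.16) in vector cultures and at 0.830 (0.564 to 1.10) and 2.44 (1.96 to 2.91) with the hairpin. The stimulated bounds lay above the untreated ones in both backgrounds, with ratios of 2.49 (1.47 to 4.51) and 2.93 (1.79 to 5.16), wide because the level was low. The differences of 0.70 and 0.91 were understated by the pseudocount of 1, and with 0.1 they were 1.205 and 1.447. The row of Crem combines 3 groups of transcription starts, so the repressor forms and the full-length activator forms could not be separated. It also shares 1174 bp with Gm6225, which was at 0.337, 0.784, 0.552 and 0.594, first in vector and then in hairpin cultures, untreated before stimulated.

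Atf1 (chromosome 15, 100058290 to 100091679), a CREB relative that binds the same element, was at 7.47 (6.93 to 8.02) and 11.1 (10.4 to 11.7) in vector cultures. With the hairpin it was at 10.1 (9.49 to 10.7) and 11.9 (11.2 to 12.6). The stimulated bounds overlapped between backgrounds, and the untreated ones did not. The ratio was 1.48 (1.29 to 1.696) in vector and 1.17 (1.04 to 1.32) in hairpin cultures, and the differences were 0.51 and 0.21.

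Creb1 (chromosome 1, 64579378 to 64651122), the gene of the factor itself, went the other way. It was at 7.04 (6.73 to 7.35) and 5.40 (5.04 to 5.76) in vector cultures and at 7.66 (7.34 to 7.99) and 5.32 (5.08 to 5.57) with the hairpin. Both stimulated values lay below both untreated values. The ratios were 0.767 (0.686 to 0.856) and 0.695 (0.636 to 0.758), differences of -0.33 and -0.45, and 16.4% and 5.78% of genes had a lower difference. Crebbp (chromosome 16, 4084048 to 4213404) was nearly level, at 5.27 (5.03 to 5.52) and 5.43 (5.18 to 5.69) in vector and 5.17 (4.93 to 5.41) and 5.58 (5.33 to 5.84) in hairpin cultures. Its bounds overlapped in both comparisons, with differences of 0.04 and 0.09. With the hairpin they came apart under median-ratio (0.17) and upper-quartile (0.14) scaling.

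The CRTC genes also divided. Crtc1 (chromosome 8, 72906257 to 72963472), the form known as the main one of neurons, was at 15.8 (15.3 to 16.3) and 11.7 (11.3 to 12.1) in vector cultures and at 17.4 (16.8 to 17.9) and 11.9 (11.5 to 12.3) with the hairpin. Both stimulated libraries were lower than both untreated ones, with ratios of 0.742 (0.693 to 0.795) and 0.685 (0.642 to 0.731). Its differences of -0.40 and -0.51 were the lowest among the members in each background.

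Crtc3 (chromosome 7, 87731518 to 87833763) was at 9.13 (8.73 to 9.53) and 7.25 (6.88 to 7.61) in vector cultures and at 11.9 (11.5 to 12.4) and 8.31 (7.93 to 8.69) with the hairpin. It was lower with Bic/4AP in each background, by ratios of 0.794 (0.722 to 0.871) and 0.697 (0.642 to 0.757), and its stimulated hairpin level lay between the untreated and the stimulated vector level. Its locus shares 8368 bp with Gm15880, which stayed between 0.126 and 0.149 in the 4 libraries. Crtc2 (chromosome 3, 90058203 to 90068047), the form best known from liver glucose control, was at 7.72 (7.20 to 8.24) and 9.65 (9.05 to 10.2) in vector cultures, a ratio of 1.25 (1.10 to 1.42). With the hairpin it was at 7.67 (7.16 to 8.17) and 8.11 (7.58 to 8.64), where the bounds overlapped and the ratio was 1.06 (0.928 to 1.21).

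**Figure D3:**
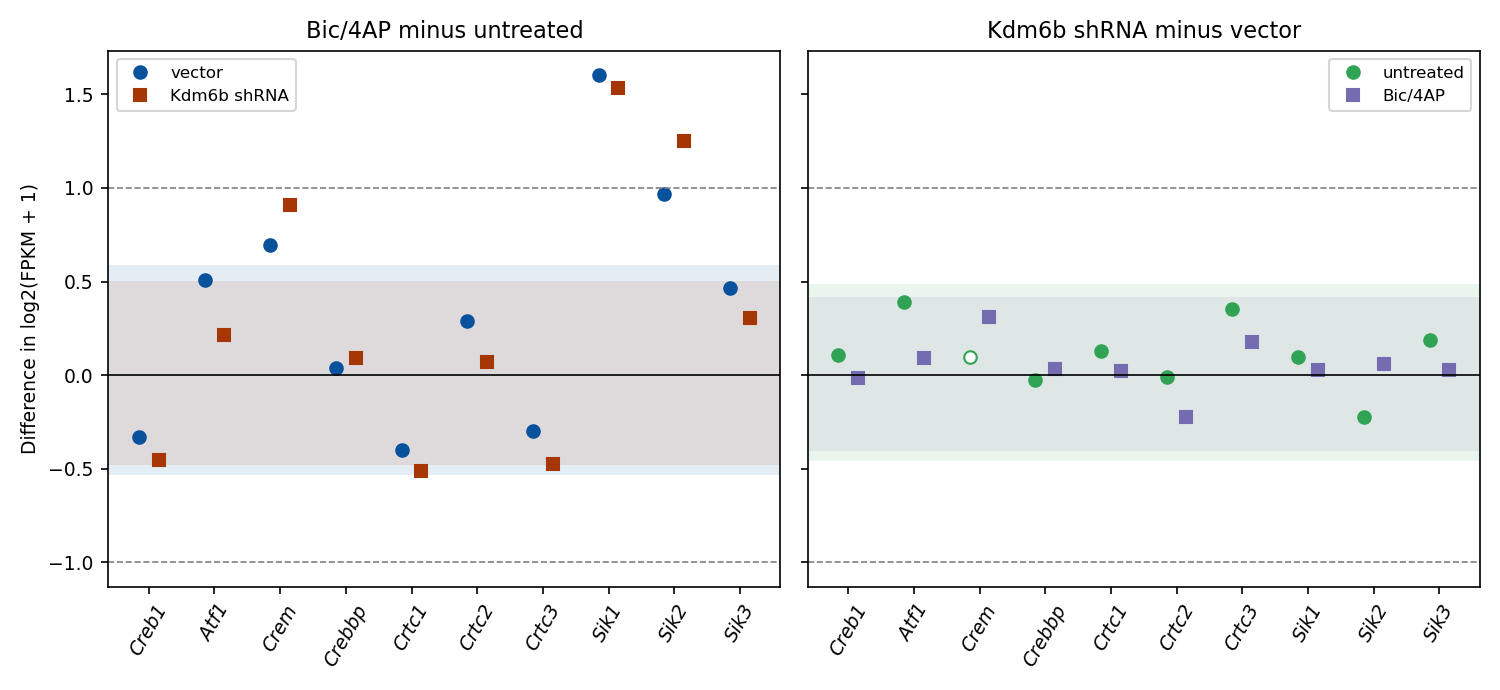
Differences in log2(FPKM + 1) for the 10 members, Bic/4AP minus untreated at left (circles vector, squares Kdm6b shRNA) and Kdm6b shRNA minus vector at right (circles untreated, squares Bic/4AP); shaded bands span the 5th to 95th percentile of all compared genes, dashed lines mark 1 and -1, and the open circle is Crem, below the minimum in both libraries compared. At left Sik1 lies at 1.60 and 1.53 and Creb1, Crtc1 and Crtc3 lie below 0, and at right no member passes the dashed lines.

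The responses in vector and hairpin cultures share no library. For 6 of the 9 members other than Crem (Atf1, Crebbp, Crtc2, Sik1, Sik2 and Sik3) both stimulated libraries lay above both untreated ones, a pattern held by 16.7% of 13458 genes. For the other 3 (Creb1, Crtc1 and Crtc3) both lay below, as did 34.9% of genes. With bounds apart in both backgrounds, 4 of the 9 were higher (Atf1, Sik1, Sik2 and Sik3) and 3 lower (Creb1, Crtc1 and Crtc3), against 14.1% and 29.4% of 13079 genes compared in both.

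Summed over each family, the balance of kinase and coactivator transcripts differed between states. The 3 SIK genes together were at 30.6 untreated and 59.7 with Bic/4AP in vector cultures, and at 32.4 and 61.3 with the hairpin. The 3 CRTC genes were at 32.6 and 28.6 in vector and at 36.9 and 28.3 in hairpin cultures. Untreated, the summed bounds of the SIK (29.4 to 31.9) and CRTC (31.2 to 34.0) families overlapped in vector cultures, and the CRTC sum was the higher with the hairpin. With Bic/4AP the SIK sum was above the CRTC sum in both backgrounds. Sik1 made up 19.0% of the SIK sum untreated and 33.0% stimulated in vector cultures, and Sik3 made up 55.8% and 40.1% of it although its own level was higher with Bic/4AP. The share of Creb1 in the sum of Creb1, Atf1 and Crem was 46.2% untreated and 29.6% stimulated in vector cultures, and 41.2% and 27.1% with the hairpin. These sums describe transcripts and not protein or kinase activity.

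**Figure D4:**
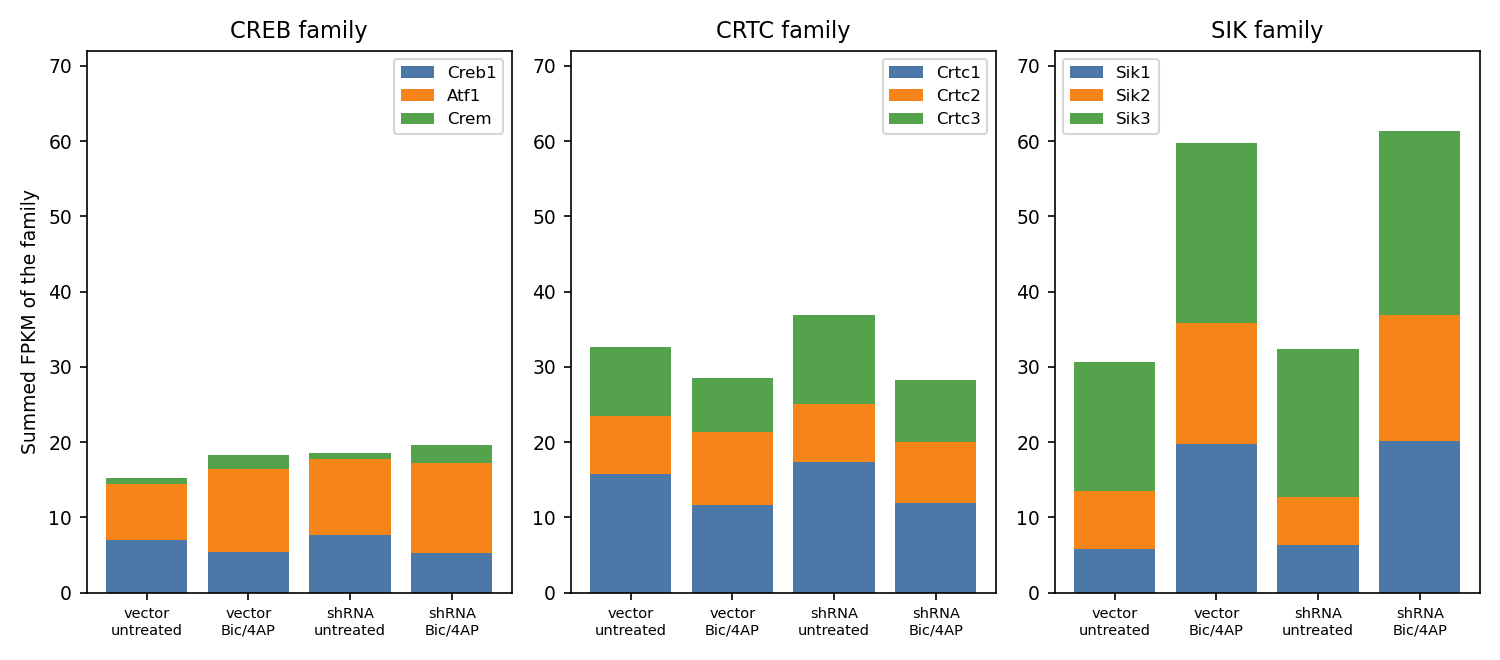
Summed FPKM of the CREB (Creb1, Atf1, Crem), CRTC and SIK families in the 4 libraries, stacked by gene, with no error bars because each bar is 1 library. The SIK sums are 30.6 and 32.4 untreated and 59.7 and 61.3 with Bic/4AP, while the CRTC sums are lower with Bic/4AP.

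The next question was whether the hairpin against Kdm6b, a demethylase of histone H3, goes with different levels of these genes at rest. These comparisons share their libraries with the responses to Bic/4AP. No member was 2-fold apart in either direction, a call met by 0.414% of 13295 genes upward and by 0.669% downward. By the bounds, 4 of the 9 members were higher (Atf1, Crtc1, Crtc3 and Sik3) and 1 was lower (Sik2), against 33.1% and 22.2% of all genes. Atf1 had the largest difference, 0.39, from 7.47 to 10.1, and Crtc3 the next, 0.35, from 9.13 to 11.9. Sik3 differed by 0.18 and Crtc1 by 0.13, and Sik2 by -0.22. For Crtc1 the bounds overlapped under median-ratio scaling, where its difference was 0.07. Creb1 (0.11), Sik1 (0.10), Crebbp (-0.024) and Crtc2 (-0.009) had overlapping bounds, and Crem was below the minimum in both libraries. Alongside, the summed neuron markers were at 1532 in vector and 1224 in hairpin cultures, the microglia markers at 32.8 and 15.4, and the interneuron markers at 736 and 317, while the astrocyte sum was 2247 in both. These sums rest on a few genes each. Of the neuron markers, Slc17a7 was at 306.9 and 185.4 and Gad1 at 139.3 and 64.5, while Syn1 was at 146.5 and 133.3. The microglia gap lay in Tyrobp (10.5 and 3.17) and C1qa (14.2 and 4.65), while Aif1 (4.73 and 4.41) was nearly level and P2ry12 (1.43 and 1.88) higher with the hairpin. The interneuron gap lay in Sst (538.5 and 225.4) and Npy (162.4 and 58.2), while Pvalb stood at 33.1 and 31.1 and Vip at 2.18 and 2.44. The astrocyte sum was mostly Gfap (1514 and 1533), and Slc1a2 was at 125.1 and 75.4. The part of these in the members' differences was not tested.

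With Bic/4AP the hairpin and vector cultures were closer. Again no member was 2-fold apart, against 0.189% of 13240 genes higher and 0.536% lower. By the bounds only Crtc3 was higher, at 7.25 in vector and 8.31 with the hairpin (difference 0.17), and only Crtc2 was lower, at 9.65 and 8.11 (-0.22), where 28.6% of genes were higher and 21.1% lower. Crem, at 1.78 and 2.44, had the largest difference, 0.31, and its bounds overlapped. The differences of the other 7 members lay between -0.018 and 0.09, and those of Crebbp, Crtc1, Sik1 and Sik3 changed sign under median-ratio scaling. In these libraries the summed microglia markers were at 30.5 in vector and 14.3 in hairpin cultures and the neuron markers at 1237 and 1085. Single markers again differed from the sums: C1qa was at 13.3 and 4.72 but P2ry12 at 1.353 and 1.516. Slc17a7 was at 206.2 and 149.8 but Snap25 at 382.7 and 429.3.

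Subtracting the vector response to Bic/4AP from the hairpin response asks whether the hairpin goes with another response to firing. No member reached 2-fold, as did 0.111% of 13458 genes upward and 0.126% downward. Sik2 was highest at 0.28 and Atf1 lowest at -0.30, and Crem stood at 0.21, Crtc2 at -0.22, Crtc3 at -0.18 and Sik3 at -0.16. The ranges that the bounds allow for the 2 response ratios did not overlap for Sik2, larger with the hairpin, and for Sik3, smaller with it. Among 13409 genes with a lower bound above 0 in every library, 5.70% had ranges apart with the larger ratio in hairpin cultures and 5.62% with the smaller. For Atf1, Sik1 (-0.07), Creb1 (-0.12), Crtc1 (-0.11), Crebbp (0.06) and the remaining members the ranges overlapped. The untreated and stimulated levels behind these values place the gap of Sik2, Sik3 and Atf1 mostly at rest. Between backgrounds Sik2 differed by -0.22 untreated and by 0.06 stimulated, Sik3 by 0.185 and 0.027, and Atf1 by 0.39 and 0.09.

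Other genes of the pathway were counted from 8 lists of 128 distinct genes, of which 127 were in the comparison tables after filtering. The lists were chosen with earlier results of these data known, so their counts are a description and not independent evidence. Nfil3, Cited2, Pde4b and Pde4d stand both on the list of cAMP and CREB targets and on another list, and are counted in each. Known cAMP and CREB targets were mostly higher with Bic/4AP: 20 of 26 compared were 2-fold higher and 0 lower in vector cultures (median 1.797), and 19 of 26 higher and 0 lower with the hairpin (median 2.05), beside the 2.22% and 2.08% of all genes that were 2-fold higher. Fos, an AP-1 factor gene and classical CREB target, was at 12.6 and 770.8 in vector cultures, and the nuclear receptor gene Nr4a1 at 4.25 and 123.5. Ppargc1a, a metabolic coactivator gene, was at 10.8 and 8.43, and the survival gene Bcl2 at 7.71 and 6.86. The difference of Sik1 was thus within the range of this list and below its median.

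Genes that act upstream of CREB had medians below 0, as did all genes compared, at -0.07 in vector and -0.08 in hairpin cultures. For the responses to Bic/4AP, the counts by the bounds in this and the next paragraphs stand beside shares over all genes. These were 21.8% higher and 37.0% lower in vector cultures, and 17.0% and 37.6% with the hairpin. Of 20 kinases that act on CREB or on its kinases, none was 2-fold apart, 3 were higher and 15 lower by the bounds in vector cultures, and the median was -0.27. Mapkapk2, a p38-activated kinase, was at 22.7 and 42.2 and Rps6ka3, a ribosomal S6 kinase, at 14.5 and 23.0, while Camkk1, which activates CaM kinases, was at 16.8 and 9.62 and Camk1g at 12.4 and 7.13. With the hairpin the same list had 3 higher and 13 lower and a median of -0.21. Of 22 genes of cAMP and protein kinase A signalling, 2 were higher and 16 lower by the bounds in vector cultures (median -0.24). The cAMP phosphodiesterase gene Pde4b was 2-fold higher (16.3 and 37.6), and Akap5, an anchor of protein kinase A at synapses, was at 15.8 and 8.23 and the adenylyl cyclase gene Adcy9 at 7.35 and 3.92. With the hairpin, 4 of these 22 were higher and 14 lower (median -0.15), Pde4b missed 2-fold at 0.98, and Pde1b was at 19.7 and 13.3.

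Calcineurin acts on CRTC proteins against the SIKs. The list that pools its subunits with its regulators and other phosphatases had no common direction. Of 10 genes, 5 were higher and 5 lower by the bounds in each background (medians -0.02 and -0.004). Rcan1, a feedback inhibitor of calcineurin, was at 37.2 and 125 in vector and 47.3 and 94.97 in hairpin cultures. The calcineurin subunit genes on the list, Ppp3ca (232 and 188), Ppp3cb (113 and 94.8) and Ppp3r1 (205 and 181), were all lower in vector cultures. With the hairpin they were lower as well, at 245 and 217, 123 and 110, and 184 and 166. Of 17 compared kinases related to the SIKs, with their activator Stk11 (LKB1), 2 were higher and 10 lower by the bounds in vector cultures (median -0.14), and of 18 with the hairpin 2 and 10 (median -0.10). Nuak2 was at 13.6 and 25.1 and Stk11 at 49.9 and 57.2, while the neuronal polarity kinase Brsk2 was at 36.7 and 22.0. None of them was 2-fold apart, and neither were Sik2 and Sik3 in vector cultures. By size of difference in either direction, the relatives lay below Sik1, Sik2 and Sik3 (0.46) there, with exceptions for Sik3. Nuak2, at 0.84, and Brsk2, at -0.71, exceeded Sik3 in size, and Brsk2 was lower with Bic/4AP. For class IIa histone deacetylases and YWHA adaptor proteins, which SIK phosphorylation brings together, 3 of 9 were higher and 4 lower in vector cultures (median -0.006), with Hdac5 at 29.8 and 34.7 and Hdac9 at 13.3 and 9.70.

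Relatives of the factors and of the coactivator were also counted. Of 12 other CREB and ATF genes, 8 were higher and 2 lower by the bounds in vector cultures (median 0.31) and 7 and 2 with the hairpin (median 0.23). Nfil3, a repressor of the same protein class, was at 6.60 and 51.3, and the stress-response factor gene Atf4 at 130 and 241, while Atf2 (30.6 and 27.1) and Creb3 (42.3 and 38.7) were lower. Of 9 coactivator genes 2 were higher and 4 lower in vector cultures (median -0.02), among them Cited2, which binds CBP and p300, at 40.7 and 114, and the steroid receptor coactivator gene Ncoa1 at 19.3 and 13.4. Crebbp, at a difference of 0.04, lay between these.

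Between hairpin and vector cultures the differences in the lists were smaller. At rest no gene of 7 lists was 2-fold apart, although with a pseudocount of 0.1 each of the CREB kinase and LKB1-related lists had 1, and of the 25 compared CREB targets 2 were 2-fold lower, the neuropeptide genes Tac1 (27.7 and 11.0) and Sst (538 and 225). The kinase list had 2 higher and 11 lower by the bounds (median -0.09, against 0.05 over all genes), led by Camkk1 at 16.8 and 8.29. Over all genes at rest, 33.1% were higher and 22.2% lower by the bounds, and 0.414% and 0.669% by the 2-fold call. With Bic/4AP the kinase list had 1 higher and 8 lower (median -0.07), with Camkk1 at 9.62 and 4.57, and 1 CREB target was 2-fold higher, the proenkephalin gene Penk at 18.7 and 41.3, a call that was lost with a pseudocount of 5. The shares over all genes with Bic/4AP were 28.6% higher and 21.1% lower by the bounds, and 0.189% and 0.536% by the 2-fold call. Sst is also one of the interneuron markers given above.

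For the members called 2-fold, the genes of most similar pattern were taken by the smallest Euclidean distance of log2(FPKM + 1), centred on the mean of the 4 libraries, among 13458 genes. Nearest to Sik1 were Txndc11 (distance 0.0874), Gbp5 (0.103), Pcna (0.122), Cpne8 (0.126) and 4933409K07Rik (0.131). Txndc11 was at 10.9 and 34.4 in vector and 12.5 and 37.2 in hairpin cultures. Nearest to Sik2 were Nefl (0.109), Sox11 (0.136), Ccnl1 (0.151), Lgr5 (0.156) and Rnd3 (0.159), with Sox11 at 6.24, 14.5, 5.86 and 15.7 over the 4 libraries. Lgr5 was at 0.233 and 1.26 in vector and 0.148 and 1.46 in hairpin cultures. It thus reached an FPKM of 1 only in the stimulated libraries, where it was high. The likeness of all these genes rests on 4 libraries. Among the members themselves the closest pairs were Creb1 with Crtc1 (0.071), Atf1 with Sik3 (0.154) and Crtc1 with Crtc3 (0.203).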

How the data were processed

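PolyA-enriched RNA was sequenced from 4 cultures, 1 library per group. Build mm9, Cufflinks 2.0.2, TopHat2 2.0.8b and CASAVA 1.8 are listed in the submitters' processing notes; the annotation and the use of strand are not given in the sources used here. The authors deposited an FPKM for each of 22878 rows per library, beside a lower and an upper bound. Starts in the tables were taken to count from 0 and are printed counted from 1. Rows of 1 symbol were summed; 42 symbols with a failed row and 730 small RNA symbols were left out, leaving 21720 genes. Per1 was among those left out.

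Values were compared as log2(FPKM + 1), which understates low genes, where either compared library reached an FPKM of 1, without further scaling (Python 3.11.15, pandas 2.3.3). A difference of at least 1 was called 2-fold; with 1 library per group nothing was tested. The comparison code was tested on simulated data. Members and lists were chosen with earlier results of these data known. Named genes were the 10 members, Kdm6b, up to 2 largest and 2 smallest differences of each list, and the 5 nearest genes of each member called 2-fold; other names (Ppp2r1b, Gm6225, the marker genes) follow from overlap with a locus or from the marker lists. Alternatives were other pseudocounts (0.1 and 5), filters, scalings, the highest row per symbol, small RNA genes kept, and bounds required apart.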

Additional observations from a re-analysis of the deposited data

Results flagged for a closer look

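For 3 members the hairpin minus vector difference had opposite signs untreated and with Bic/4AP, each state being 1 library per background, and the difference between states was not tested. Of 13077 genes compared in both states, 21.0% had opposite signs. Sik2 stood at -0.22 untreated and 0.058 with Bic/4AP, with bounds apart only untreated. Creb1 stood at 0.11 and -0.018, and Crebbp at -0.024 and 0.033, all with overlapping bounds. Under median-ratio scaling 5 members had opposite signs: Creb1, Sik2, Crtc1 (0.067 and -0.027), Sik1 (0.040 and -0.020) and Sik3 (0.122 and -0.022), and Crebbp did not (-0.079 and -0.011).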

How the results depend on the processing

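Of 437 member differences recomputed under 9 alternatives, 421 moved by less than the authors' bounds allow, 16 moved by more (14 with another pseudocount, 2 with scaling), and none that was 2-fold or had bounds apart changed sign. The 4 that did change sign, all under median-ratio scaling, were the hairpin differences with Bic/4AP of Crebbp (-0.011), Crtc1 (-0.027), Sik1 (-0.020) and Sik3 (-0.022). The filters, the highest row per symbol and the keeping of small RNA genes could not move a member's difference, because each member had 1 row. Many of the 421 were therefore fixed in advance, and only other pseudocounts and scalings could move a value. Members 2-fold higher with Bic/4AP in vector cultures numbered 1, and 3 with a pseudocount of 0.1, 2 under median-ratio and 2 under upper-quartile scaling; with the hairpin they numbered 2, and 1 with a pseudocount of 5. Counts over all genes depended on the pseudocount. With 0.1, 130 genes (main value 36) were lower with Bic/4AP in vector and 97 (21) in hairpin cultures, 149 (55) and 149 (89) higher and lower with the hairpin untreated, 105 (25) and 115 (71) stimulated, and 39 (15) and 41 (17) in the difference of responses. With 5, the higher and lower counts in the same order were 171 (294) and 0, 160 (277) and 1, 11 and 32, 4 and 26, and 7 and 4. With small RNA genes kept, 92 and 92 genes were lower with Bic/4AP, 117 and 160 apart with the hairpin untreated, 79 and 133 stimulated, and 103 and 106 in the difference of responses. Under median-ratio scaling 22 genes were lower with Bic/4AP in vector cultures, and at a minimum FPKM of 5, 13 were higher with the hairpin and Bic/4AP. The cause was not tested beyond the change of scale, genes or threshold itself. Of 360 counts of 2-fold genes in the pathway lists, 12 moved: with a pseudocount of 0.1, and under median-ratio and upper-quartile scaling, the cAMP and the calcineurin list each had 1 in the hairpin response in place of 0, and with 0.1 the CREB kinase and LKB1-related lists each had 1 for the hairpin in both states and the CREB targets 2 in the difference of responses, while with 5 the targets had 0 for the hairpin with Bic/4AP. No paired analysis was possible because the groups hold 1 replicate each and so share no second replicate number; a fit with the background as a block was not run. With low levels, as for Crem, the bounds were the widest, up to 32.9% of the value.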

Other observations

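Among the 122 compared genes of the pathway lists, the response to Bic/4AP differed most in size between hairpin and vector cultures for the following 6, with 1 library per group and no test. The proenkephalin gene Penk was at 2.63 untreated and 18.7 with Bic/4AP in vector cultures and at 2.02 and 41.3 with the hairpin, a response larger by 1.37 in log2(FPKM + 1). The somatostatin gene Sst, at 538.5 and 541.6 in vector and 225.4 and 413.1 in hairpin cultures, had a difference of responses of 0.86. Ptgs2, an inducible prostaglandin synthase gene, was at 1.63 and 55.5 in vector and 0.823 and 67.7 in hairpin cultures (0.81). Rcan1, an inhibitor of calcineurin, stood at 37.2 and 125 in vector and 47.3 and 94.97 in hairpin cultures (-0.73). The tachykinin gene Tac1 was at 27.7 and 62.1 and at 11.0 and 41.7 (0.70). Nuak2, a relative of the salt-inducible kinases, was at 13.6 and 25.1 and at 17.2 and 21.1 (-0.56).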
